A study of Rattus norvegicus with 4 samples.

Results

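The 40 genes described here are the WNT ligands and R-spondins, the Frizzled receptors, and the secreted SFRP and Dickkopf antagonists of the rat. They were found by symbol in the deposited gene list, as every Wnt, Rspo, Fzd, Sfrp or Dkk name followed by its number and any letter, and make up 40 of 25399 genes. By family they are 19 Wnt, 4 Rspo, 9 Fzd, 4 Sfrp and 4 Dkk genes. Frzb, a Frizzled-related antagonist, and Wif1 carry other names, so the rule does not take them.

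Cells were digested from a limb muscle, the tibialis anterior (TA), and from the muscles that turn the eye, the extraocular muscles (EOM). All rats were 12 months old, and a library holds all cells of the muscle, with no sort named. There was 1 library for each muscle and disease state: TA labelled WT (wild-type), TA labelled DMD, EOM labelled WT and EOM labelled DMD. DMD is the labels' abbreviation, and the sources used here do not give the Dmd allele, the strain, the sex or the number of animals behind a library. The disease state field, which sets the groups here, is contradicted by the title in all 4 samples. Had the titles been used, each direction between DMD and WT below would be the opposite, and they would exchange the names of the WT and the DMD pair in the tissue comparisons.

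After filtering, 2083, 7964, 1249 and 2261 cells were analysed for TA labelled WT, TA labelled DMD, EOM labelled WT and EOM labelled DMD, with median depths of 2484, 1224, 3650 and 4488 unique molecular identifiers (UMIs, 1 for each captured molecule). The library TA labelled DMD had the most cells and the fewest UMIs in each. Pairs of libraries shared 0 to 5 analysed cell barcodes. Cell classes were rebuilt by clustering, without the 40 genes or their pathway among the clustering genes, and are called X-like. In groups of at least 50 cells the classes described had all of their own markers detected, with a few exceptions. Msc was at 0 in satellite-like cells of EOM labelled DMD, and Rhag in erythroid-like cells of both TA libraries. Lcn2 and Ngp were at 0 in neutrophil-like cells of TA labelled DMD. With 1 library per group there is no replicate, so no difference below has a replicate check and no test was run. The 95% intervals are counting intervals on the UMIs; they cover counting error only, not the spread between cells or animals.

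WNT proteins are lipid-modified signals that bind Frizzled receptors on nearby cells, and in the canonical branch of the pathway this stabilises β-catenin, which then acts with TCF/LEF factors on target genes. R-spondins strengthen the signal by keeping Frizzled receptors at the cell surface. SFRPs carry a Frizzled-like domain and bind WNTs outside the cell, while Dickkopf proteins act mostly on the LRP co-receptors. In skeletal muscle these factors are known from the behaviour of satellite cells, the muscle stem cells, and of fibro-adipogenic progenitors (FAPs), the resident fibroblasts that support repair and can lay down scar.

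Of the 40 genes, 17 reached 20 CPM (counts per 1000000) in at least 1 class of at least 50 cells in 1 library. They were Wnt4, Wnt5a, Wnt5b, Wnt6 and Wnt11, Rspo1 and Rspo3, Fzd1, Fzd2, Fzd4 and Fzd6, all 4 Sfrp genes, and Dkk2 and Dkk3. Fzd3 was nearest outside, at 16.5 CPM in lymphatic endothelial-like cells of TA labelled DMD. A further 9 genes had 1 to 19 UMIs in all analysed cells, and Dkk1, Wnt3a, Wnt7a, Wnt8a and Wnt8b had none. The SFRP antagonists held the highest levels: Sfrp1, Sfrp2 and Sfrp4 lay mainly in FAP/fibroblast-like cells, Sfrp5 in Schwann-like cells. Dkk2 and Dkk3 reached only 44.6 and 80.4 CPM, both in tenocyte-like cells, below the 271 CPM of Fzd4. The library reads 3' ends, 1 tag per molecule, so a level in CPM does not grow with transcript length, though capture can still differ between genes.

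**Figure D1:**
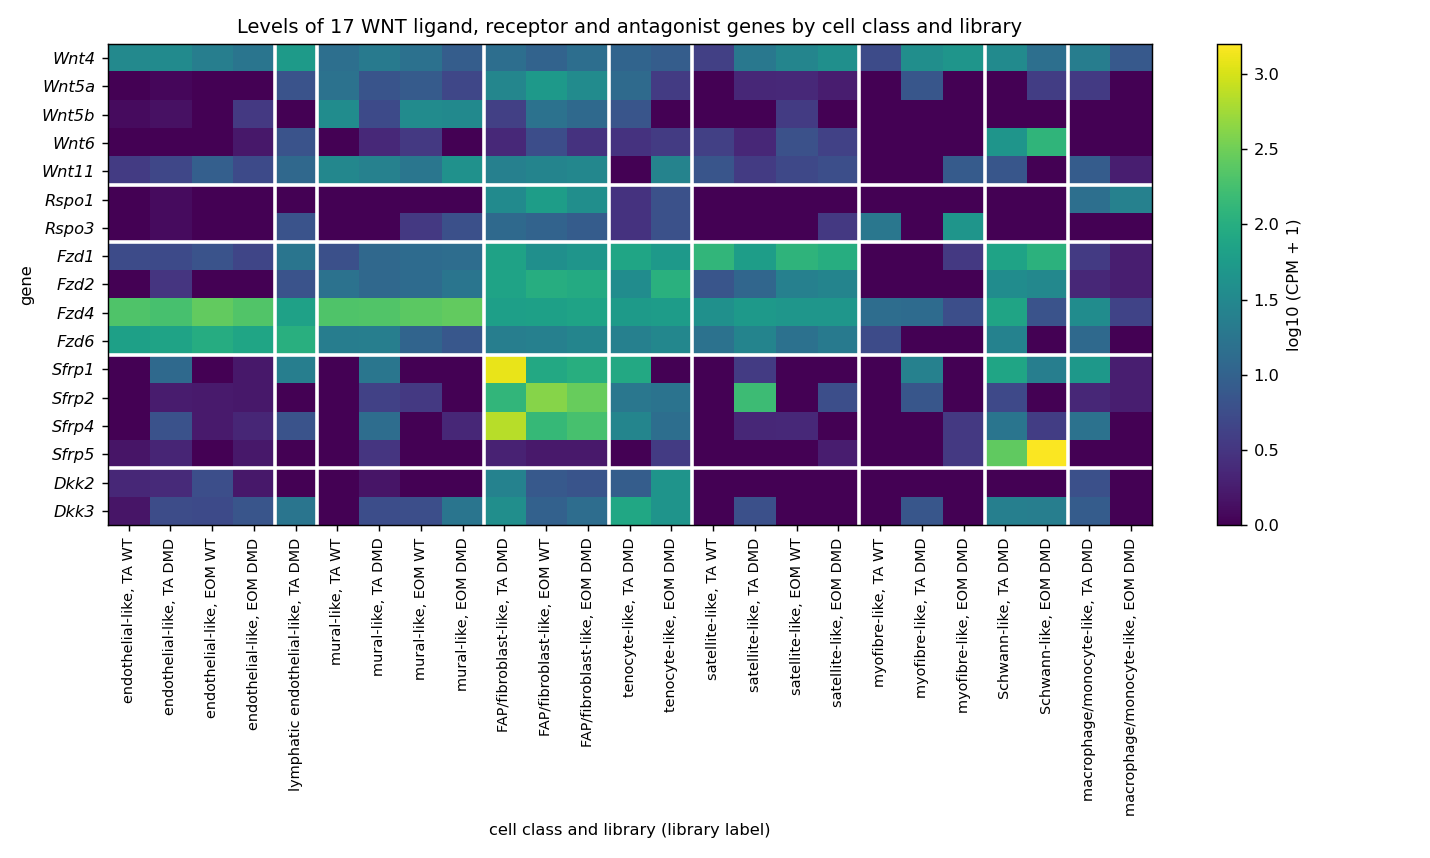
Level of the 17 genes that reached 20 CPM (y axis, by family) in each class and library with at least 50 cells (x axis); colour is log10 of CPM + 1. Sfrp1 and Sfrp4 stand out in FAP/fibroblast-like cells of TA labelled DMD, Sfrp5 in Schwann-like cells, and Fzd4 in endothelial-like and mural-like cells of every library.

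Among the ligands, Wnt4 had the highest level in endothelial-like cells, though it was not confined to them. In endothelial-like cells it measured 31.0 CPM in TA labelled WT, 32.6 in TA labelled DMD, 22.4 CPM in EOM labelled WT and 16.4 CPM in EOM labelled DMD. Both TA libraries were above both EOM libraries, and EOM labelled DMD lay 0.69 lower than TA labelled DMD on the log2 scale, short of 2-fold. Log2 ratios here carry a prior of 10 CPM on both sides. In lymphatic endothelial-like cells of TA labelled DMD, the 1 library with over 50 of them, Wnt4 reached 55.1 CPM from 10 UMIs. Satellite-like cells held 3.01 CPM (1 UMI), 17.95, 27.5 and 38.5 CPM of Wnt4 in the same library order, so here the EOM libraries were the higher ones. Myofibre-like cells held 4.37 CPM (1 UMI) in TA labelled WT, 37.0 in TA labelled DMD and 45.7 in EOM labelled DMD. Of all Wnt4 UMIs, endothelial-like cells held 84.6% in TA labelled WT but 13.7% in EOM labelled DMD. Leukocyte-like cells of TA labelled DMD were at 23.4 CPM, and the part of RNA from other cells was not tested.

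Wnt5a, which signals mostly without β-catenin, and Rspo1 were fibroblast genes in all 3 libraries that held over 50 FAP/fibroblast-like cells. Wnt5a measured 28.8 CPM in TA labelled DMD, 53.5 CPM in EOM labelled WT and 34.2 CPM in EOM labelled DMD. Rspo1 measured 32.9, 59.6 and 37.0 CPM in the same order, and 77.6%, 88.9% and 80.8% of its UMIs came from that class. For both genes EOM labelled WT was the highest and the libraries labelled DMD lay close together. Outside fibroblasts, Rspo1 was present in macrophage/monocyte-like cells at 13.9 CPM in TA labelled DMD and 24.8 CPM (29 UMIs) in EOM labelled DMD. Wnt11 showed 24.1, 26.4 and 29.3 CPM in FAP/fibroblast-like cells, a narrower range than that of either gene.

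Wnt2b, a ligand of the canonical branch, was seen mostly in EOM fibroblasts. It gave 14 UMIs (9.48 CPM) in EOM labelled WT and 34 UMIs (7.49 CPM) in EOM labelled DMD, against 1 UMI (0.339 CPM) in the 1331 cells of TA labelled DMD. The ratio of the libraries labelled DMD was 22.1, with a wide interval of 3.71 to 898. Wnt5b had the same order in this class, with 3.05 CPM in TA labelled DMD, 14.9 CPM in EOM labelled WT and 11.2 CPM in EOM labelled DMD. Both stayed under the minimum for the comparisons, a mean of 20 CPM over the 2 libraries.

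In mural-like cells, the pericytes and smooth muscle of vessel walls, Wnt5b was a gene of smooth muscle. Nearly all of its UMIs lay in cluster 18, led by Acta2, Tagln and Myh11, where it measured 112.5 CPM (28 UMIs) in TA labelled WT, 15.7 (15 UMIs) in TA labelled DMD, 140 (14 UMIs) in EOM labelled WT and 108 (24 UMIs) in EOM labelled DMD. TA labelled DMD alone was low, 7.18-fold under TA labelled WT (interval 3.71 to 14.47) and 6.91-fold under EOM labelled DMD (3.48 to 14.2). The EOM libraries did not differ beyond counting error, with a ratio of 0.775 (0.385 to 1.62). The summed level of 6 smooth muscle markers was 24920, 19580, 21700 and 21010 CPM in the same library order. The cells of TA labelled DMD were shallow, with a median of 982 UMIs against 7342 in TA labelled WT, and carried more of the FAP marker list, 1948 against 498 CPM; the part of either in the Wnt5b difference was not tested.

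Wnt11 in mural-like cells measured 29.2, 24.2, 16.9 and 41.0 CPM in the library order TA labelled WT, TA labelled DMD, EOM labelled WT and EOM labelled DMD. It was richest in cluster 10, led by Ccl11, at 92.2, 63.0 and 79.2 CPM in TA labelled WT, TA labelled DMD and EOM labelled DMD. Rspo4 was an endothelial gene at low level: 35 UMIs (8.97 CPM) in TA labelled WT, 1 UMI (0.126 CPM) in TA labelled DMD, 21 UMIs (14.7 CPM) in EOM labelled WT and 9 UMIs (5.45 CPM) in EOM labelled DMD. TA labelled DMD held the most endothelial-like cells, 2754, and the fewest Rspo4 UMIs, 71.2-fold lower than TA labelled WT (interval 12.0 to 2891). Rspo4 stayed under the 20 CPM minimum of the comparisons. The make-up of the class also differed. Cluster 0, led by Ca4 and Aqp1, held 993 cells of TA labelled WT and 162 of TA labelled DMD, and cluster 2, led by Plvap, held 11 and 787. The endothelial marker list was at 7480 and 3851 CPM. The part of these in the Rspo4 difference was not tested. Leukocyte-like cells, used here as a reference for RNA from other cells, had no Rspo4 UMI.

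Rspo3 in myofibre-like cells gave 4 UMIs (17.5 CPM) in TA labelled WT, 0 in TA labelled DMD and 19 UMIs (45.7 CPM) in EOM labelled DMD. The 19 UMIs came from 7 cells, and 8 of them from 1 cell. In FAP/fibroblast-like cells Rspo3 was even across the libraries, at 11.54, 9.48 and 7.49 CPM in TA labelled DMD, EOM labelled WT and EOM labelled DMD.

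Fzd4, the Frizzled of vessel growth in the retina, was the vascular receptor in every library. In endothelial-like cells it measured 207.5 CPM in TA labelled WT, 187 in TA labelled DMD, 271 CPM in EOM labelled WT and 212 CPM in EOM labelled DMD, and in mural-like cells 205.5, 216.5, 248 and 266 CPM. No library was past 2-fold from another in either class, and in mural-like cells both EOM libraries were the higher ones. With cells thinned to 1000 UMIs, 18.2%, 17.6%, 24.6% and 20.8% of endothelial-like cells had a Fzd4 UMI (34.9%, 31.9%, 44.4% and 41.2% unthinned). Leukocyte-like cells thinned alike had 0%, 3.67%, 0% and 0.357%; median depths were 2291, 1854, 2211 and 2562 UMIs in endothelial-like cells and 6735.5, 1135, 6836 and 6304 in leukocyte-like cells.

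Fzd6 shared the endothelium, at 64.3, 71.1, 93.9 and 75.8 CPM in the library order TA labelled WT, TA labelled DMD, EOM labelled WT and EOM labelled DMD. In lymphatic endothelial-like cells of TA labelled DMD it measured 105 CPM (interval 63.1 to 164), while Fzd4 there was at 66.2 CPM. In mural-like cells Fzd6 was at 21.6 (17 UMIs) and 22.1 CPM (83 UMIs) in the TA libraries and at 9.64 (4 UMIs) and 6.40 CPM (5 UMIs) in the EOM libraries. The EOM to TA ratio in the pair labelled WT was 0.447, with an interval of 0.110 to 1.37 that includes 1. Fzd1 and Fzd2 were receptors of the stromal, nerve and stem cell classes. In FAP/fibroblast-like cells Fzd1 measured 69.2 CPM in TA labelled DMD, 37.9 CPM in EOM labelled WT and 46.3 CPM in EOM labelled DMD, and Fzd2 measured 71.6, 96.2 and 89.9 CPM. Fzd1 was thus highest in the TA library and Fzd2 in the EOM libraries, both by less than 2-fold.

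In satellite-like cells Fzd1 measured 126 CPM in TA labelled WT, 59.0 in TA labelled DMD, 118 CPM in EOM labelled WT and 97.2 CPM in EOM labelled DMD. TA labelled DMD was the low library, 0.98 lower than TA labelled WT on the log2 scale and just inside the 2-fold limit. Fzd2 gave 6.01 CPM (2 UMIs), 10.3, 23.6 and 26.5 CPM, higher in both EOM libraries. The EOM to TA ratio was 3.93 in the pair labelled WT (interval 0.940 to 34.9, which includes 1). In the pair labelled DMD it was 2.58 (1.17 to 6.47). Neither reached the minimum for the comparisons. Fzd4 was even in this class, between 39.1 and 52.6 CPM.

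In tenocyte-like cells, the cells of tendon, Fzd2 measured 35.3 CPM in TA labelled DMD and 105 CPM in EOM labelled DMD, 2.97-fold higher (interval 1.67 to 5.51), and 99.97 CPM in the 17 such cells of EOM labelled WT. Fzd1 and Fzd4 did not differ beyond counting error in this class, at 74.6 and 54.9 CPM in TA labelled DMD and 52.5 and 57.8 CPM in EOM labelled DMD. The FAP marker list was higher in the EOM tenocyte-like cells, 49790 against 23310 CPM, and its part in the Fzd2 difference, and in the other differences of this class below, was not tested.

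Of the 13 cases past 2-fold between EOM labelled DMD and TA labelled DMD, most were antagonists. Their share among all pairs tested was not compared, and Sfrp1 was counted anew in each class. Outside the fibroblasts, TA labelled DMD had Sfrp1 at 74.6 CPM (Schwann-like), 84.4 CPM (tenocyte-like) and 49.3 CPM (macrophage/monocyte-like). All leukocyte-like cells of that library together were at 71.9 CPM, and the part of RNA from other cells was not tested. SFRPs of the fibroblasts changed places between TA labelled DMD and the EOM libraries: Sfrp1 and Sfrp4 were high in TA labelled DMD and lower in both EOM libraries, and Sfrp2 was the reverse. Sfrp1 in FAP/fibroblast-like cells measured 1229 CPM in TA labelled DMD (3622 UMIs, interval 1189 to 1270), 84.7 in EOM labelled WT (125 UMIs, 70.5 to 101) and 100.3 in EOM labelled DMD (455 UMIs, 91.3 to 110). EOM labelled DMD was 12.2-fold lower than TA labelled DMD (interval 11.1 to 13.5), a log2 ratio of -3.49. The 7 FAP/fibroblast-like cells of TA labelled WT are too few to say on which side of this a TA library labelled WT would fall, so muscle and disease state cannot be told apart for the TA level.

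Sfrp4, an SFRP also known from bone, measured 711 CPM in TA labelled DMD (2095 UMIs), 138 in EOM labelled WT (204 UMIs) and 186 in EOM labelled DMD (843 UMIs). EOM labelled DMD was 3.83-fold lower than TA labelled DMD (interval 3.53 to 4.15), a log2 ratio of -1.88. Sfrp2 measured 125.5 CPM (370 UMIs), 414 (611 UMIs) and 286 (1296 UMIs) in the same order, and here both EOM libraries were above TA labelled DMD. EOM labelled DMD was 2.28-fold higher than TA labelled DMD (interval 2.03 to 2.56). For every 100 Sfrp1 UMIs, FAP/fibroblast-like cells held 10.2 Sfrp2 UMIs in TA labelled DMD, against 489 and 285 in the libraries EOM labelled WT and EOM labelled DMD.

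**Figure D2:**
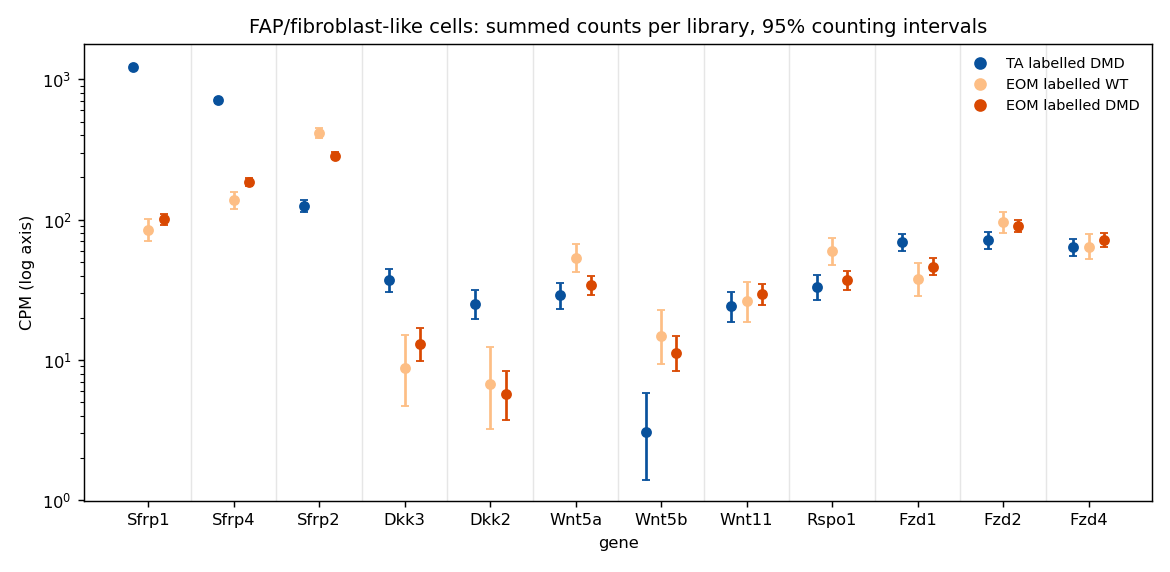
Level in CPM (y axis, log scale) of 12 of the genes (x axis) in FAP/fibroblast-like cells of the 3 libraries with at least 50 such cells; points are summed counts per library and bars 95% counting intervals. Sfrp1 lies at 1229 CPM in TA labelled DMD against 84.7 and 100.3 CPM in the EOM libraries, Sfrp2 has the opposite order, and Fzd4 is level.

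At equal depth the shares of cells with a UMI put TA labelled DMD above both EOM libraries for Sfrp1 and Sfrp4, and below both for Sfrp2. At 1000 UMIs per cell, 58.8% of FAP/fibroblast-like cells had an Sfrp1 UMI in TA labelled DMD, against 7.28% and 7.74% in the libraries EOM labelled WT and EOM labelled DMD (54.5%, 17.1% and 18.2% unthinned). For Sfrp2 the thinned shares were 6.18%, 16.99% and 15.2% (8.79%, 32.9% and 33.1% unthinned), and for Sfrp4 29.5%, 12.6% and 11.1% (30.7%, 32.4% and 34.6% unthinned). Thinning left 631 of 1331, 206 of 216 and 633 of 674 cells, and the median depths were 954, 6729 and 7030.5 UMIs. Leukocyte-like cells of TA labelled DMD, with a median of 1135 UMIs, had an Sfrp1 UMI in 8.33% of thinned cells (9.60% unthinned) and 71.9 CPM, so droplets of other cells also held Sfrp1 RNA in that library. Of these 86 leukocyte UMIs, 38 lay in 52 neutrophil-like cells (475 CPM, and 162.5 CPM of Sfrp4), while macrophage/monocyte-like and NK-like cells were at 49.3 and 35.2 CPM of Sfrp1. In the EOM libraries, where leukocyte-like cells had median depths of 6836 and 6304 UMIs, 0% and 0.714% of them had one after thinning. The thinned leukocyte shares in TA labelled DMD were 2.33% for Sfrp4 and 0% for Sfrp2. Marker lists differed too: in the order TA labelled DMD, EOM labelled WT and EOM labelled DMD, FAP/fibroblast-like cells summed to 55250, 87470 and 73380 CPM of their own 9 markers and to 457, 42.0 and 19.6 CPM of endothelial markers, and the part of these in the SFRP differences was not tested.

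The FAP/fibroblast-like cells of the TA and the EOM fell largely into different clusters. Clusters 16 and 17, led by Apod, Myoc and Smoc2, held 1064 and 226 cells of TA labelled DMD, and cluster 29, led by Ces1d and Dcn, held 184 and 572 cells of the EOM libraries. Cluster 29 also took in 22 cells of TA labelled DMD, which allows both muscles to be compared inside 1 cluster. There Sfrp1 measured 1056 CPM in TA labelled DMD, 84.9 CPM in EOM labelled WT and 96.2 CPM in EOM labelled DMD, and TA labelled DMD was 10.99-fold above EOM labelled DMD (interval 9.01 to 13.3). The Sfrp1 ratio inside the shared cluster, from only 22 cells of TA labelled DMD, was thus near that over the whole class. The cells of this cluster differed in other genes too. The FAP list was at 51480 CPM in TA labelled DMD and 73850 CPM in EOM labelled DMD, and the endothelial list at 247 and 19.6 CPM. The part of these in the differences inside cluster 29, here and below, was not tested.

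Sfrp2 in cluster 29 gave 2 UMIs (14.98 CPM) in TA labelled DMD against 408 and 275 CPM in EOM labelled WT and EOM labelled DMD, a ratio of EOM labelled DMD to TA labelled DMD of 18.3 (interval 5.06 to 151.5). Sfrp4 differed less there, at 285, 133 and 190 CPM, with TA labelled DMD 1.502-fold above EOM labelled DMD (1.06 to 2.08). Cluster 15, with Ces1d and Pi16 as its leading genes, held 19, 29 and 95 cells of TA labelled DMD, EOM labelled WT and EOM labelled DMD. In it Sfrp2 was at 401, 665 and 665 CPM, and Sfrp1 at 286.5, 91.7 and 187 CPM, so the 3 libraries lay closer together than in cluster 29.

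**Figure D3:**
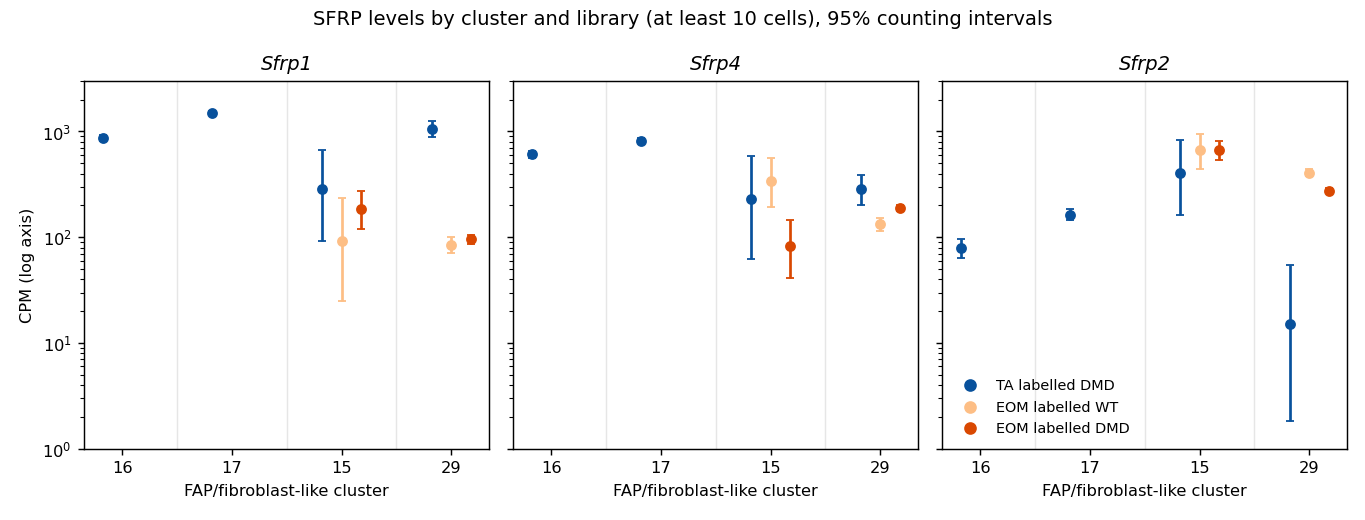
Level in CPM (y axis, log scale) of Sfrp1, Sfrp4 and Sfrp2 in the 4 FAP/fibroblast-like clusters (x axis) by library, for groups of at least 10 cells; bars are 95% counting intervals. In cluster 29, which both muscles share, Sfrp1 is at 1056 CPM in TA labelled DMD and at 84.9 and 96.2 CPM in the EOM libraries, and Sfrp2 has the opposite order.

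Pi16 marks a fibroblast state found near vessels and in fascia. Cells were split by whether a draw of 1000 of their UMIs held Pi16, which 42 of 631, 63 of 206 and 185 of 633 cells did in TA labelled DMD, EOM labelled WT and EOM labelled DMD. Sfrp4 went with Pi16 in all 3 libraries: in cells with and without it, Sfrp4 measured 1507 and 667 CPM in TA labelled DMD, 238 and 99.2 in EOM labelled WT, and 295 and 137 in EOM labelled DMD. Sfrp1 was at similar levels with and without Pi16, at 1181 and 1328, 90.4 and 83.0, and 90.6 and 103.8 CPM. Sfrp2 had no common order with and without Pi16, at 128 and 131, 366 and 433, and 336 and 263 CPM. In TA labelled DMD, Sfrp4 was detected in 39.5% of the cells with an Sfrp1 UMI and in 20% of those without, whose median depths were 1376 and 733 UMIs; the part of depth in that difference was not tested.

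Dickkopf genes, like Sfrp1, were higher in fibroblasts of TA labelled DMD than of either EOM library. Dkk3, a divergent member of the family, measured 37.0 CPM in FAP/fibroblast-like cells of TA labelled DMD, 8.81 CPM in EOM labelled WT and 13 CPM in EOM labelled DMD. EOM labelled DMD was 2.84-fold lower than TA labelled DMD (interval 2.05 to 3.97), a log2 ratio of -1.03 that lies at the 2-fold limit and ranged from -1.44 to -0.69 under other settings. Dkk2 measured 25.1, 6.77 and 5.73 CPM, 4.38-fold lower in EOM labelled DMD than in TA labelled DMD (2.77 to 7.14), with a mean under the 20 CPM minimum.

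In tenocyte-like cells Dkk2 had the opposite order, with 4 UMIs (7.85 CPM) in TA labelled DMD and 17 UMIs (44.6 CPM) in EOM labelled DMD, 5.69-fold higher (interval 1.86 to 23.2). Dkk3 in these cells was at 80.4 and 44.6 CPM. Sfrp1 in tenocyte-like cells was at 84.4 CPM in TA labelled DMD and at 0 of 60 cells in EOM labelled DMD, at least 10.7-fold lower against 3 counts. Of the thinned tenocyte-like cells of TA labelled DMD, 6.67% had an Sfrp1 UMI (4.94% unthinned, median 1042 UMIs), beside 8.33% of leukocyte-like cells. In the 17 tenocyte-like cells of EOM labelled WT, Sfrp1 was at 41.6 CPM (5 UMIs), so the EOM libraries were not alike, and the part of RNA from other cells was not tested.

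Sfrp5, the SFRP of peripheral nerve in these data, was higher in the EOM. In Schwann-like cells it measured 261 CPM (126 UMIs) in the 234 cells of TA labelled DMD and 1536 CPM (554 UMIs) in the 69 cells of EOM labelled DMD, 5.88-fold higher (interval 4.84 to 7.20) and 2.51 on the log2 scale. The smaller groups labelled WT had 603 CPM in 24 cells of the TA, where 30 of 58 UMIs came from 1 cell, and 1334 CPM in 42 cells of the EOM. Both EOM libraries lay above both TA libraries. At 1000 UMIs per cell, an Sfrp5 UMI was in 16.5% of Schwann-like cells in TA labelled DMD and in 68.1% in EOM labelled DMD (19.7% and 88.4% unthinned), against 0% of leukocyte-like cells in both. The median depths were 1050.5 and 4164 UMIs in Schwann-like and 1135 and 6304 UMIs in leukocyte-like cells. In Schwann-like cells their own marker list was at 6479 CPM in TA labelled DMD and 11030 CPM in EOM labelled DMD. The endothelial list was at 1043 and 8.32 CPM. The part of these in the differences of this class, here and below, was not tested.

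Wnt6, a ligand of the canonical branch, was the WNT gene of this class. It measured 104, 45.6, 97.7 and 122 CPM in TA labelled WT, TA labelled DMD, EOM labelled WT and EOM labelled DMD, so TA labelled DMD was the low library. EOM labelled DMD was 2.68-fold higher than TA labelled DMD (interval 1.57 to 4.69), and other settings gave log2 ratios from 0.51 to 1.98 around the value of 1.25. The receptor Fzd1 was present in this class in all 4 libraries, at 114, 70.5, 132 and 114 CPM.

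The Schwann-like class joined 2 clusters, and Sfrp5 differed inside the one with over 20 cells in each library. Cluster 3, led by S100b, Scn7a and Sfrp5, without myelin genes among its leading genes, held 23, 170, 39 and 61 cells, and Sfrp5 there measured 314, 235, 1064 and 1578 CPM. The EOM to TA ratio was 6.71 in the pair labelled DMD (interval 5.26 to 8.68) and 3.39 in the pair labelled WT (2.28 to 5.22). Wnt6 in cluster 3 was at 112, 62.7, 108 and 142 CPM. The Schwann marker list there summed to 5900, 3876, 5171 and 5425 CPM in the same order, and its part was not tested. Cluster 28, with Mbp and S100b among its leading genes, held 1, 64, 3 and 8 cells, and in the 64 cells of TA labelled DMD Sfrp5 was at 312 CPM.

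Fzd4 and Sfrp1 were lower in Schwann-like cells of EOM labelled DMD than of TA labelled DMD, and both went with signs of other cells. Fzd4 was at 72.5 against 5.55 CPM (2 UMIs), 13.1-fold lower (interval 3.36 to 112), and Sfrp1 at 74.6 against 22.2 CPM, 3.36-fold lower (1.54 to 8.38). The summed endothelial marker list in the same cells was 1043 CPM in TA labelled DMD and 8.32 CPM in EOM labelled DMD, and the FAP list 3167 and 1841 CPM. In cluster 28 of TA labelled DMD the endothelial list reached 1892 CPM and Fzd4 135 CPM. At 1000 UMIs, Sfrp1 was in 8.26% of Schwann-like cells of TA labelled DMD (8.12% unthinned), beside 8.33% of leukocyte-like cells of that library. The smaller Schwann-like groups labelled WT held Sfrp1 as well, at 52.0 CPM (5 UMIs) in the TA and 55.2 CPM (13 UMIs in 8 of 42 cells) in the EOM, where leukocyte-like cells had none. The part of RNA from other cells in the Sfrp1 difference was not tested. The part of the endothelial signal in the Fzd4 difference was not tested.

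Cluster 27 stayed unnamed. In the marker scoring it qualified for several types, highest for perineurial cells of the nerve sheath (20.9), then Schwann (19.5) and FAP/fibroblast (13.6). Its leading genes joined Mbp, a myelin gene, with others such as Itgb4, Ptgds and Cldn1. It held 2, 48, 2 and 12 cells, and it was the main place of Wnt6 and Wnt10a: unnamed clusters held 67.3% and 58.3% of all Wnt6 UMIs and 75.0% and 78.6% of all Wnt10a UMIs in TA labelled DMD and EOM labelled DMD. In cluster 27, Wnt6 measured 292 and 337 CPM in these libraries (ratio 1.16, interval 0.823 to 1.63), Wnt10a 92.6 and 89.4 CPM (0.965, 0.502 to 1.86) and Fzd2 426 and 426.5 CPM (1.001, 0.749 to 1.34). These 3 genes did not differ beyond counting error between these libraries. Sfrp5 did, at 366 CPM in TA labelled DMD and 1385 CPM in EOM labelled DMD, a ratio of 3.79 (2.96 to 4.90). The Schwann marker list also differed, at 5830 and 11990 CPM, as did the median depth, 2113 and 19100 UMIs, and their part was not tested.

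**Figure D4:**
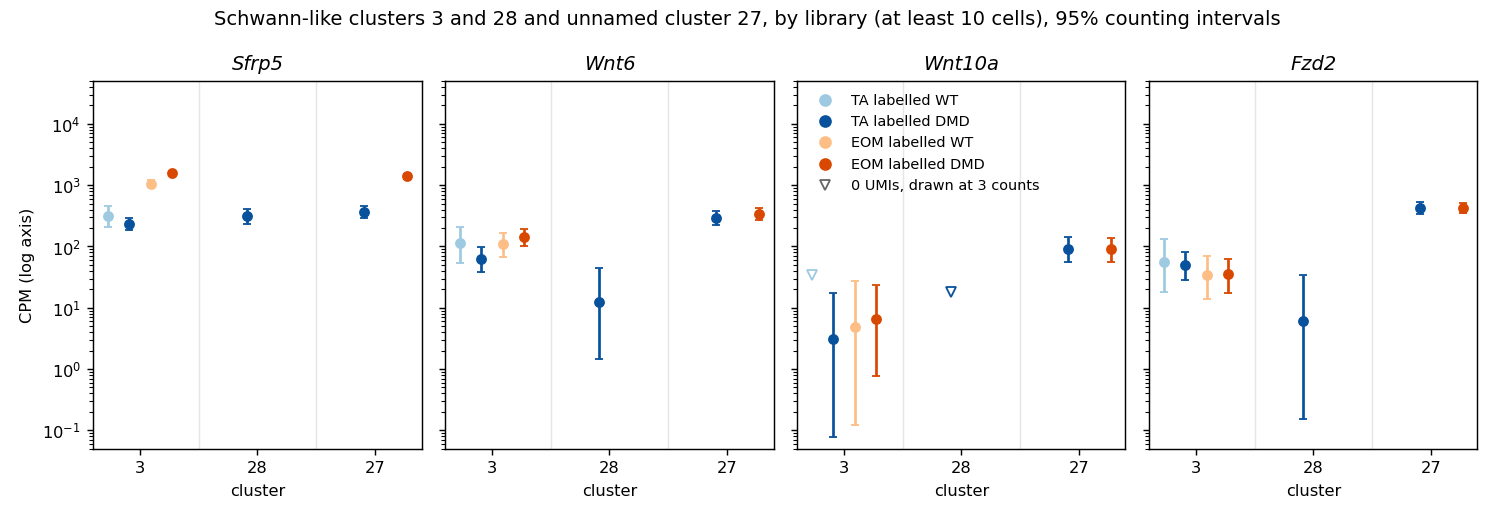
Level in CPM (y axis, log scale) of Sfrp5, Wnt6, Wnt10a and Fzd2 in Schwann-like clusters 3 and 28 and in unnamed cluster 27 (x axis), by library, for groups of at least 10 cells; bars are 95% counting intervals and open triangles stand for 0 UMIs, drawn at 3 counts. Sfrp5 is higher in the EOM libraries in clusters 3 and 27, while Wnt10a and Fzd2 in cluster 27 lie together.

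Satellite-like cells of TA labelled DMD held Sfrp2, and those of the other libraries almost none. The class had 0 UMIs in 56 cells of TA labelled WT, 121 UMIs (155 CPM, interval 129 to 185) in 313 cells of TA labelled DMD, 0 in 135 cells of EOM labelled WT and 6 UMIs (4.82 CPM) in 225 cells of EOM labelled DMD. TA labelled DMD was at least 17.2-fold higher than TA labelled WT, against 3 counts in that library, and EOM labelled DMD was 32.2-fold lower than TA labelled DMD (interval 14.4 to 89.5). At 1000 UMIs, an Sfrp2 UMI was seen in 14.47% of the satellite-like cells from TA labelled DMD (17.9% unthinned, median depth 1027 UMIs), against 0% of leukocyte-like cells of that library (0.377% unthinned, median 1135 UMIs). In the 42 differentiating satellite-like cells, all of TA labelled DMD, Sfrp2 was at 85.6 CPM (8 UMIs).

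Most satellite-like cells of TA labelled DMD lay in cluster 20, with 249 cells and Sfrp2 at 230 CPM, while those of the other libraries lay in cluster 13. In cluster 13 itself, the 64 cells of TA labelled DMD had Sfrp2 at 101 CPM, against 0 in 50 cells of TA labelled WT, 0 in 132 cells of EOM labelled WT and 3.39 CPM in 221 cells of EOM labelled DMD. The ratio of TA labelled DMD to EOM labelled DMD there was 29.9 (interval 10.9 to 114).

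The other SFRPs of the fibroblasts were at or near 0 in these cells. The 56 satellite-like cells with an Sfrp2 UMI held 0 Sfrp1 and 1 Sfrp4 UMI, and the whole class held 121 Sfrp2 UMIs and 2 Sfrp1 UMIs. FAP/fibroblast-like cells of the same library held 370 and 3622. Pax7, the stem cell factor of muscle, was at 309 CPM in these 56 cells, and Pdgfra, a defining FAP gene, at 8.95 CPM (2 UMIs) against 521 CPM in FAP/fibroblast-like cells. Other FAP genes were present: with and without an Sfrp2 UMI, and in TA labelled WT, Col3a1 measured 1289, 453 and 0 CPM, Col1a1 174.5, 97.0 and 6.01 CPM, and Dcn 367, 453 and 3.01 CPM. The summed FAP list was 4520 CPM with Sfrp2, 4062 without it, 2891 in TA labelled WT and 55250 in FAP/fibroblast-like cells. The satellite marker list was at 2944, 3262 and 5247 CPM in cells with Sfrp2, without it and in TA labelled WT. Its genes did not move alike. In that order Pax7 was at 309, 309 and 352 CPM and Myf5 at 993, 1069 and 1031 CPM. Chrdl2 was at 0, 5.39 and 319 CPM and Calcr at 58.2, 62.9 and 222 CPM. Cdh15 was at 134, 296 and 478 CPM and Chodl at 653, 675.5 and 1683 CPM. Megf10 and Myod1 were also highest in TA labelled WT. The cells with Sfrp2 were deeper, with a median of 1720 against 952 UMIs, and the part of the FAP signal and of depth in the Sfrp2 difference was not tested.

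**Figure D5:**
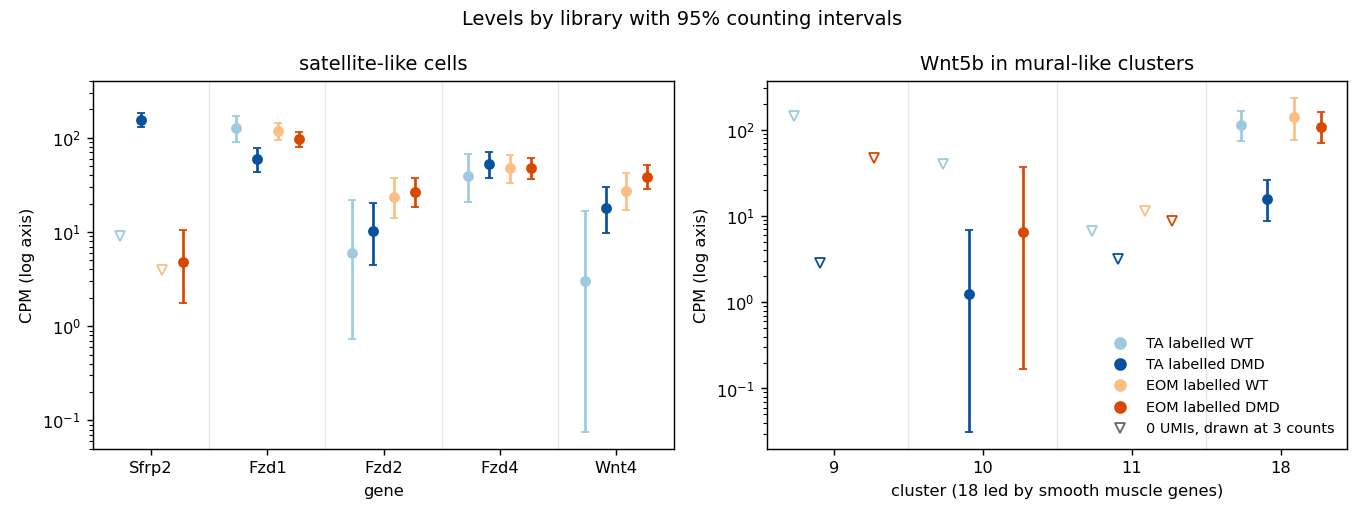
Left, level in CPM (y axis, log scale) of Sfrp2, 3 Frizzled genes and Wnt4 (x axis) in satellite-like cells by library; right, Wnt5b in the 4 mural-like clusters (x axis). Bars are 95% counting intervals and open triangles 0 UMIs drawn at 3 counts; Sfrp2 stands out in TA labelled DMD at 155 CPM, and Wnt5b lies in cluster 18, lowest in TA labelled DMD at 15.7 CPM.

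Of the 4 Sfrp genes, 2 matched the promoter table, Sfrp2 and Sfrp5, and these are shown because they lay in different classes, stem cells and fibroblasts for Sfrp2 and nerve for Sfrp5. RefSeq, assembly GRCr8, gives the 250 bases before the start of Sfrp2 on the plus strand at chr2:171387286-171387535 (62.4% G or C) and of Sfrp5 on the minus strand at chr1:250960513-250960762 (58% G or C), both printed 5′ to 3′ along the gene.
Sfrp2: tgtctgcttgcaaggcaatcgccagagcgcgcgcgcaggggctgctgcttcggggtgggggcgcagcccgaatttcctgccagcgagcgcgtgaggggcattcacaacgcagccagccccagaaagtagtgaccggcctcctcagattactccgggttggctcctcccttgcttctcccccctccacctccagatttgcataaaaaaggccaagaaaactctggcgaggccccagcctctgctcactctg
Sfrp5: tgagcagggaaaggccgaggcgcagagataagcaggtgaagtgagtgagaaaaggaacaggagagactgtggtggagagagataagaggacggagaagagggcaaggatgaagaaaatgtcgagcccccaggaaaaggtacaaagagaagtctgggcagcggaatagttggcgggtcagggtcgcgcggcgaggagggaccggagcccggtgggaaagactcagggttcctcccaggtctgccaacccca
The TCF/LEF core CTTTGA, the TATA box TATAAA and the E-box CAGCTG, searched on both strands with no overlap between them, match neither window, so no letters are in capitals. Of 27457 promoters of this length, 13.8%, 13.1% and 11.9% hold them, and of the 27 genes described here that have an entry, 3 (Dkk1, Fzd7 and Wnt8a), 1 (Dkk1) and 2 (Wnt10a and Wnt9a) do. A missing match says only that these letters are not in the window.

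Each count of genes past 2-fold is read against all genes of the same class, with at least 50 cells in both libraries and, for a gene, a mean of 20 CPM and 20 UMIs over them. The 4 comparisons share libraries pairwise and are not independent. TA labelled DMD against TA labelled WT gave 3 cases past 2-fold, all higher in TA labelled DMD. In endothelial-like cells 0 of 3 members tested were higher or lower (all genes: 4.23% higher, 3.12% lower), and in mural-like cells 0 of 3 (3.9% and 2.43%). In satellite-like cells 1 of 4, Sfrp2, was higher and none lower (5.01% and 4.36%). In erythroid-like cells 2 of 2, Fzd4 and Sfrp1, were higher, but so were 94.4% of all genes there, with 1.95% lower. Their levels went from 4.26 to 83.1 CPM and from 0 to 116 CPM, while the FAP list went from 14.9 to 6539 CPM and the median depth from 18258 to 993 UMIs, and the part of these was not tested.

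EOM labelled DMD against EOM labelled WT gave no member past 2-fold in any class tested. In FAP/fibroblast-like cells 0 of 10 were higher or lower (all genes 0.604% and 0.746%), and the log2 ratios ran from -0.57 for Rspo1 to 0.40 for Sfrp4. Endothelial-like cells gave 0 of 2 (1.25% and 0.751%), mural-like cells 0 of 3 (3.52% and 2.13%) and satellite-like cells 0 of 4 (1.1% and 1.71%). At these backgrounds a count of 0 is close to what all genes show. The comparison of EOM labelled WT with TA labelled WT likewise gave 0 of 3 in endothelial-like cells (0.518% and 0.484%), 0 of 3 in mural-like cells (1.03% and 1.62%) and 0 of 2 in satellite-like cells (1.83% and 2.7%). It could not take in fibroblasts or Schwann-like cells, where TA labelled WT had 7 and 24 cells.

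EOM labelled DMD against TA labelled DMD held most of the differences, with 5 higher and 8 lower in EOM labelled DMD. It also tested members in more classes than any other comparison, and was the only one to test them in tendon and nerve classes. Its count therefore cannot be set directly beside the counts of the other comparisons. In FAP/fibroblast-like cells 1 of 11 was higher (Sfrp2, all genes 2.35%) and 3 were lower (Sfrp1, Sfrp4 and Dkk3, all genes 3.29%). In Schwann-like cells 2 of 7 were higher (Sfrp5 and Wnt6, 2.62%) and 2 lower (Fzd4 and Sfrp1, 8.04%). In tenocyte-like cells 2 of 7 were higher (Fzd2 and Dkk2, 4.9%) and 1 lower (Sfrp1, 7.88%). These 3 classes had larger shares of members past 2-fold than of all genes, over 7 to 11 genes each, counting Sfrp1 in Schwann-like and tenocyte-like cells, where leukocyte-like cells of TA labelled DMD had it at a like level (71.9 CPM). In satellite-like cells 0 of 5 were higher (2.49%) and 1 lower (Sfrp2, 5.98%).

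Of the other classes of that comparison, endothelial-like cells gave 0 of 3 (1.62% higher and 2.79% lower among all genes), mural-like cells 0 of 2 (1.59% and 1.57%) and myofibre-like cells 0 of 1 (20% and 9.09%). In macrophage/monocyte-like cells the 1 member tested, Sfrp1, was lower (all genes 2.91% higher and 6.34% lower), at 49.3 CPM in TA labelled DMD and 1 UMI (0.855 CPM) in EOM labelled DMD. The FAP list there was 2555 against 489 CPM, and its part was not tested.

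Of 72 other WNT pathway genes listed, 70 were in the gene list. In FAP/fibroblast-like cells, where the SFRPs differed most, 0 of 28 of them tested were past 2-fold between EOM labelled DMD and TA labelled DMD. Of all genes there, 2.35% were higher and 3.29% lower. Between the EOM libraries 1 of 29 was lower in EOM labelled DMD (all genes 0.746%), Cpz, a WNT-binding carboxypeptidase, at 78.6 against 27.8 CPM. In vessel cells Myc, a known β-catenin target that many other signals also drive, was past 2-fold in both muscles. In endothelial-like cells Myc measured 34.8 CPM in TA labelled WT and 334 CPM in TA labelled DMD, and 43.5 and 116 CPM in the EOM libraries; in mural-like cells it measured 103, 281, 84.4 and 300 CPM in TA labelled WT, TA labelled DMD, EOM labelled WT and EOM labelled DMD. Igfbp4, a binding protein of insulin-like growth factors that also opposes WNT, was the other gene higher in TA labelled DMD in both classes, at 97.8 and 326.5 CPM in endothelial-like and 259 and 683 CPM in mural-like cells. No other of the 25 and 28 pathway genes tested there was higher (all genes 4.23% and 3.9%). Between the EOM libraries Myc was the 1 of 27 higher in endothelial-like cells (all genes 1.25%) and the 1 of 26 in mural-like cells (3.52%). Igfbp4 in mural-like cells was at 429 CPM in EOM labelled WT and 858 CPM in EOM labelled DMD. That log2 ratio of 0.98 was just inside the 2-fold limit. Between TA labelled WT and TA labelled DMD, the FAP list went from 99.9 to 1270 CPM in endothelial-like and from 2524 to 3595 CPM in mural-like cells. Their own lists went from 7480 to 3851 and from 16950 to 11500 CPM. In erythroid-like cells, where 94.4% of all genes were higher, Igfbp4 went from 1.06 to 283 and Myc from 0 to 283 CPM. The part of RNA from other cells was not tested.

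Frzb, the SFRP that the rule does not take, was 1 of 28 lower in mural-like cells of TA labelled DMD (all genes 2.43%). It measured 50.7 CPM in TA labelled WT and 9.56 CPM in TA labelled DMD. It was also the 1 of 27 lower in EOM labelled WT than in TA labelled WT (all genes 1.62%), at 12.05 CPM. TA labelled WT was thus the one high library. Against TA labelled DMD, EOM labelled DMD had 2 of 27 pathway genes lower in endothelial-like cells (Igfbp4 and Myc, all genes 2.79%). In mural-like cells 0 of 27 were past 2-fold (all genes 1.59% higher and 1.57% lower). In macrophage/monocyte-like cells 2 of 12 were lower (Tspan12, a co-receptor of Fzd4, and Myc, all genes 6.34%). In myofibre-like cells 2 of 5 were higher (Ctnnbip1 and Tspan12), where 20% of all genes were.

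In satellite-like cells the pathway counts between the TA libraries were near those of all genes (5.01% higher and 4.36% lower). In TA labelled DMD, 1 of 25 was higher than in TA labelled WT, Ctnnbip1, an inhibitor of β-catenin binding to TCF, at 36.1 and 89.7 CPM. The 2 lower were Mcam and Ror1, a WNT5A receptor, Ror1 at 63.1 and 24.4 CPM. EOM labelled DMD against TA labelled DMD had Igfbp4, Mcam and Ror1 higher and Ctnnbip1 and Ccnd1 lower of 27 (all genes 2.49% and 5.98%). Ccnd1, a cyclin, was at 599 CPM in TA labelled DMD and 187 in EOM labelled DMD. Mcam was the 1 of 29 lower in EOM labelled DMD than in EOM labelled WT (all genes 1.71%). EOM labelled WT had 3 of 27 higher than TA labelled WT, Igfbp4, Mcam and Bcl9 (all genes 1.83%). Notum, an enzyme that strips the lipid from WNTs and was picked here after its values were seen, was even at 39.1, 49.99, 47.2 and 34.5 CPM.

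In tenocyte-like cells 5 of 28 pathway genes were higher in EOM labelled DMD than in TA labelled DMD (all genes 4.9%) and 2 lower (all genes 7.88%). Axin2, the general target gene and feedback inhibitor of β-catenin signalling, was at 0 in TA labelled DMD and 52.5 CPM (20 UMIs) in EOM labelled DMD. Reck, a WNT7 co-receptor component, was at 27.5 and 129 CPM and Ccn4, a target gene, at 31.4 and 94.5 CPM, with Igfbp4 and Prickle1 also higher. Nkd2, an inhibitor, was lower at 54.9 and 7.88 CPM, and Ccnd1 at 45.1 and 0 CPM. In Schwann-like cells 1 of 27, Dact3, was higher in EOM labelled DMD (all genes 2.62%), at 12.4 and 47.1 CPM. Igfbp4 and Tspan12 were lower there (all genes 8.04%), at 155 and 5.55 and at 68.4 and 2.77 CPM, with the endothelial list differing as for Fzd4.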

How the data were processed

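Droplet 3' single-cell libraries were made from total cells of rat muscle. Per the file headers, the authors counted reads with Cell Ranger 4.0.0; per the submitters' processing notes they used build rn6; the sources used here do not give the annotation or cell calling. Whole UMI counts of each gene in each barcode were deposited, with no normalization by the authors. Barcodes with at least 500 UMIs, 200 genes and at most 20% mitochondrial UMIs were kept (14233 of 17504). Scrublet's own threshold marked 30 (0.211%), too few, so the highest scores were removed up to 0.8% per 1000 cells, 676 in all, leaving 13557 cells with 6730142, 19269545, 6522117 and 12152568 UMIs in TA labelled WT, TA labelled DMD, EOM labelled WT and EOM labelled DMD.

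Cells were clustered with scanpy 1.11.5 (log counts per 10000, 2000 variable genes without the members and the pathway list, 30 components, 15 neighbours, Leiden resolution 1.0) into 32 clusters, with no batch integration. Clusters were named from markers of 24 cell types: at least 3 markers at 2-fold over the median cluster and in 10% of cells. That scoring was settled after clusters had been seen, and 3 clusters (490 cells) stayed unnamed. The names are rebuilt, not the authors'.

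UMIs were summed per class and library and scaled to CPM, with exact Poisson intervals; folds have exact conditional binomial intervals and shares Clopper-Pearson intervals (scipy 1.17.1). A count of 0 was set to 3 counts in folds. Past 2-fold means a log2 ratio over 1 in size with a prior of 10 CPM. No p-value was computed. The ratio code was tested on simulated data. Named genes are the members reaching 20 CPM, those past 2-fold, and at most 3 pathway genes past 2-fold per class and direction; others were chosen after their values were seen. The members and lists were chosen with earlier results of these data known. Alternatives tried were a stricter cell filter, Leiden resolution 0.5, no doublet removal, clustering with the members, a prior of 1 CPM, totals without mitochondrial and haemoglobin genes, thinning to 1000 UMIs, means over cells, and no minimum level.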

Additional observations from a re-analysis of the deposited data

How the results depend on the processing

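Each comparison sets 1 library against 1, so no replicate could be left out, and no batch other than the library is named in the labels. No paired analysis was possible because each group holds 1 library and nothing was tested. The number of genes reaching 20 CPM, 17, stayed between 14 and 18 under all alternatives run. For TA labelled DMD over TA labelled WT, the count of member and class pairs past 2-fold higher, 3, became 6 without doublet removal, 1 with cells thinned and 13 with no minimum level; the count lower, 0, became 1 at Leiden resolution 0.5, 2 without doublet removal, 1 with a prior of 1 CPM, 1 without mitochondrial and haemoglobin genes, 1 with means over cells and 3 with no minimum level. For EOM labelled DMD over EOM labelled WT, the count higher, 0, became 2 without doublet removal and 1 with a prior of 1 CPM, and the count lower, 0, became 1 without doublet removal and 1 with cells thinned. For EOM labelled WT over TA labelled WT, the count higher, 0, became 1 without doublet removal and 2 with no minimum level, and the count lower, 0, became 1 with means over cells. For EOM labelled DMD over TA labelled DMD, the count higher, 5, became 2 with the stricter filter, 3 with cells thinned and 8 with no minimum level, and the count lower, 8, became 3 with cells thinned and 18 with no minimum level. Thinning and the stricter filter use fewer cells; for the other changes the cause was not tested. The 16 pairs past 2-fold gave 123 values under alternatives, 117 on the same side of 2-fold, 6 not, and 0 reversed; 11 pairs were past 2-fold in every alternative that gave a value. Between EOM labelled DMD and TA labelled DMD the log2 ratio ranged from -3.60 to -2.87 for Sfrp1, -1.98 to -1.78 for Sfrp4 and 1.02 to 1.38 for Sfrp2 in FAP/fibroblast-like cells, 2.13 to 2.72 for Sfrp5 in Schwann-like cells and -4.75 to -3.25 for Sfrp2 in satellite-like cells. Pairs that crossed 2-fold in an alternative were Dkk3 in FAP/fibroblast-like cells, Fzd4, Sfrp1 and Wnt6 in Schwann-like cells and Sfrp1 in macrophage/monocyte-like cells. Depth limits the low genes most: in a class of 50 cells at 1000 UMIs, a few UMIs set a level.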
